A study of Mus musculus with 6 samples.

Results

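Genes of glycolysis, of the hypoxia response and of the citrate cycle were examined in whole embryonic mouse kidneys that lacked or carried a working Wnt4 gene. The 42 genes were listed by symbol, and a gene counted as measured where the platform annotation of a probe set gave that symbol alone. By this rule 40 of the 42 genes were found among the 8251 genes with such a probe set. Gpi1 and Eno1 were not analysed here, and Gapdh was present only as control probe sets of the array. Of the other 39 genes, 38 passed the filter on low signals and were tested, and Adm did not pass it. For each gene the probe set of highest average log2 signal was used, and 13 of the 39 had further probe sets.

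RNA came from whole metanephroi, the embryonic kidneys, at E14.5, in mid-gestation (Theiler stage 22, sex unknown). There were 2 arrays of Wnt4 mutant kidneys carrying the allele Wnt4tm1Amc, strain label 129, each a pool of 8 to 10 kidneys from 4 to 5 embryos. There were 4 arrays of wild-type kidneys, strain label CD-1, each a pool of 2 kidneys, and how many embryos gave them is not known here. For mutant pools too, the protocol text mentions matings of CD-1 mice. No group received a treatment, and the pools of each group are taken as separate biological samples, as the design text describes them. Strain label, pool size and genotype change together between the groups and cannot be told apart. Per the design text, the mutant lacks renal vesicles, the first epithelial stage of the nephron, and what forms from them, and the comparison was meant to find genes expressed there. In RNA from a whole organ, fewer cells of a type and less RNA per cell cannot be told apart.

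Glycolysis splits glucose into pyruvate in the cytosol, and lactate dehydrogenase turns pyruvate into lactate. Pyruvate that enters the mitochondrion is converted to acetyl-CoA by the pyruvate dehydrogenase complex, which pyruvate dehydrogenase kinases switch off, and the citrate cycle then oxidises it. When oxygen is low, the hypoxia-inducible factors (HIF) raise transcription of many glycolytic genes, of Pdk1, of Bnip3 and of genes for collagen hydroxylation. In the mature kidney the proximal tubule relies on mitochondrial oxidation and makes glucose through Fbp1 and Pck1.

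Array quality is described by a few values. Median signals lay between 181 and 190 on mutant arrays and between 172 and 187 on wild-type arrays, and log2 signals correlated across probe sets at 0.918 to 0.934 between the groups, against 0.939 to 0.969 within them. Wnt4 read 74.2 and 34.5 on the mutant arrays and 829, 739, 946 and 699 on the wild-type arrays (-3.59, adjusted p = 6.11e-05, limma). Its mutant signals were under the 40th percentile of their arrays. Wnt4 therefore passed the filter on low signals through the wild-type arrays alone and had to differ, so its p carries no weight. Six2 of nephron progenitors and Foxd1 of cortical stroma were measured on all arrays, and Ret of the ureteric bud did not pass the filter. Of 7981 probe sets tested, 6.11% were lower and 4.65% higher in the mutant at an adjusted p under 0.05 (limma, Benjamini-Hochberg). The counts behind these shares, 488 and 371, became 198 and 133 without mutant replicate 1, 188 and 114 without mutant replicate 2, and 320 lower without wild-type replicate 1.

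In the mutant kidneys Pdk1, Bnip3 and P4ha2 rose, while Aldoa, Ldha, Ldhb and Pdhb fell. The genes that rose are from the list of HIF targets, on which Ndrg1 and Adm had both mutant arrays below the wild-type range. Aldoa and Ldha belong to glycolysis, and HIF raises many genes of that pathway too. On a wider list of hypoxia response genes Ddit4 rose (1.52), while Vegfa, a HIF target, and Cited2 fell (-0.87 and -0.78). Ddit4 kept its call with each array left out, and Vegfa and Cited2 did not. No citrate cycle gene passed the threshold, although 10 of 11 had a negative difference. Of the 38 members tested, 4 fell (background 6.11%), 3 rose (background 4.65%) and 31 did not pass. Without mutant replicate 1 the counts were 4 and 1, and without mutant replicate 2 they were 3 and 1. Without wild-type replicates 2 and 4 they were 8 and 3. For 15 members neither mutant array reached the lowest wild-type array, a pattern of 18.8% of all probe sets, and for 6 both mutant arrays exceeded every wild-type array, a pattern of 18.6%. The median difference over the 38 members was -0.18, beside 0.010 over all 6081 genes tested. Differences are mutant minus wild type on the scale log2(signal + 16), which shrinks the differences of dim probe sets.

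**Figure D1:**
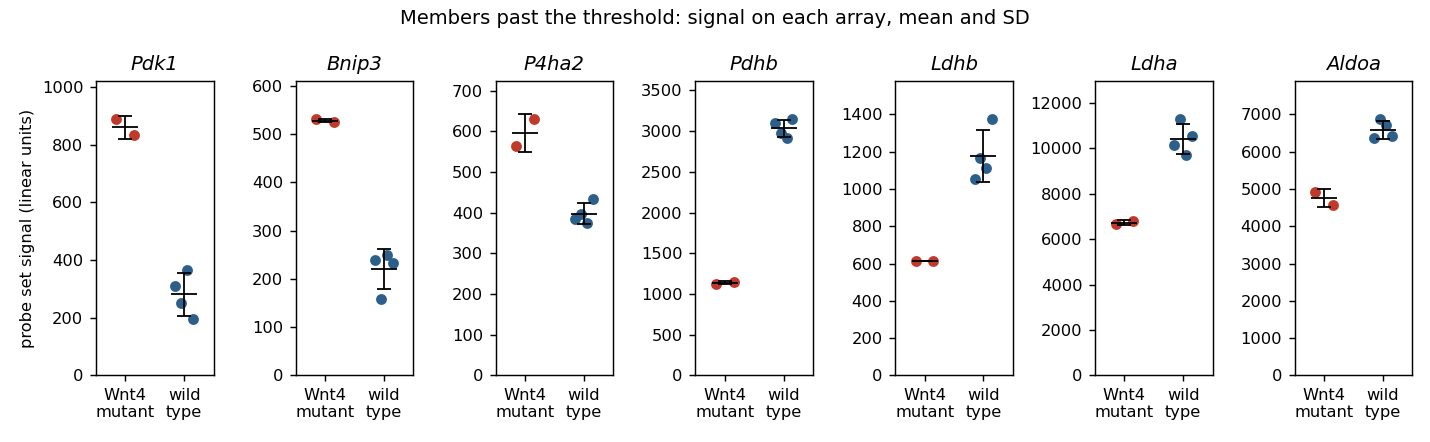
Probe set signal (linear units, axes from 0) on each of 2 Wnt4 mutant (left) and 4 wild-type (right) arrays for the 7 members past the threshold, with mean and SD in black. The mutant arrays lie above all wild-type arrays for Pdk1, Bnip3 and P4ha2 and below them for Pdhb, Ldhb, Ldha and Aldoa.

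The HIF transcription factors themselves did not pass the threshold. Hif1a, the oxygen-regulated subunit of HIF, read 5766 and 6106 on mutant arrays and 5368, 5485, 5285 and 5269 on wild-type arrays (probe set 98629_f_at). Both mutant arrays were above the wild-type range, by a difference of 0.15 ± 0.075 (SE; adjusted p = 0.250), and a second Hif1a probe set had 0.14 (adjusted p = 0.297). Epas1, a related oxygen-regulated subunit found in endothelium and other cells, had 87.4 and 140 in the mutant against 64.3 to 137 in the wild type, so that the groups overlapped (0.13, 95% interval -0.69 to 0.96).

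Among the 6 target genes of the list, Pdk1 changed most. Pdk1, the kinase that phosphorylates and inhibits pyruvate dehydrogenase, read 888 and 832 on mutant arrays, against 311, 251, 367 and 194 on wild-type arrays (100977_at). All mutant values were above all wild-type values, and the difference was 1.60 ± 0.23 (SE; adjusted p = 0.00241), or 3.03-fold. Of the 6081 genes tested, 38 had a higher difference. Pdk1 passed under all 11 other settings and with each of the 6 arrays left out, with differences between 1.31 and 1.73.

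Bnip3, a protein of the mitochondrial outer membrane that takes part in the removal of mitochondria and in cell death, read 530 and 526 in the mutant, against 238, 159, 250 and 232 in the wild type (93836_at). The groups did not overlap, and the difference was 1.22 ± 0.20 (SE; adjusted p = 0.00539), or 2.34-fold. Its size hardly moved when a mutant array was left out (1.22 without replicate 1, 1.23 without replicate 2), but the call was lost (adjusted p = 0.0613 and 0.0643).

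P4ha1 and P4ha2 encode catalytic subunits of the collagen prolyl 4-hydroxylase, which hydroxylates collagen chains so that their triple helix is stable. P4ha2 read 563 and 629 in the mutant and 384, 397, 375 and 435 in the wild type (98983_at), a difference of 0.57 ± 0.13 (SE; adjusted p = 0.0256). A second P4ha2 probe set had 1.02 (adjusted p = 0.0512). The P4ha2 difference stayed between 0.49 and 0.64 with any 1 array left out. Its call was lost without wild-type replicate 1 (0.55, adjusted p = 0.0606), wild-type replicate 3 (0.54, 0.0571), mutant replicate 1 (0.64, 0.103) or mutant replicate 2 (0.49, 0.224). It was also lost with each array centred on its median (0.53, 0.0519) and with the replicate number as a block (0.59, 0.0735). P4ha1 read 395 and 472 in the mutant and 251 to 392 in the wild type, again without overlap, and did not pass (0.41, adjusted p = 0.211).

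The remaining 2 targets had lower signals in the mutant. Ndrg1, a cytoplasmic protein induced by hypoxia and other stress, read 520 and 436 against 691, 690, 710 and 537 (-0.44, adjusted p = 0.0954), with -0.48 (adjusted p = 0.107) at its second probe set. It passed without wild-type replicate 4, its lowest wild-type array (-0.53, adjusted p = 0.0245). Adm, the vasodilator peptide adrenomedullin, read 49.8 and 16.1 in the mutant and 76.8 to 96.2 in the wild type. Each of these Adm values was under the 40th percentile of its array (107 to 110 on mutant arrays, 101 to 110 on wild-type arrays), so Adm was not tested. Over the 7 factors and targets tested, 3 rose (background 4.65%), 0 fell (background 6.11%) and 4 did not pass, and the median was 0.41. Of these 7, 5 had both mutant arrays above the wild-type range and 1, Ndrg1, had both below it, beside 18.6% and 18.8% of all probe sets. Adm, outside this count, was below it too, and with no filter, which keeps Adm, the median of the list was 0.28.

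Sequence upstream of the genes is shown for the 3 risers and for Pdhb and Ldha, 2 of the 4 members that fell, to set them side by side for the core of the HIF response element. Each is the 250 bases before a RefSeq start of the gene (GRCm38.p6), the most upstream one for Pdk1 and Ldha, which have 2 starts each, written 5′ to 3′ on the gene's strand, with matches to ACGTG or GCGTG on either strand in capitals. Where matches overlap, as in CACGTG, they form 1 run of capitals.
Pdk1 (chr2:71872974-71873223, plus strand): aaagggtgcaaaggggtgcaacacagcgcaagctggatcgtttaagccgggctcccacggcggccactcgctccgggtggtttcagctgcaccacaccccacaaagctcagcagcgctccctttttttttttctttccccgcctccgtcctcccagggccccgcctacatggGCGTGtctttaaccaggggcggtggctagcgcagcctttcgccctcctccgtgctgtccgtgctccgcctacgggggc
Bnip3 (chr7:138909507-138909756, minus strand): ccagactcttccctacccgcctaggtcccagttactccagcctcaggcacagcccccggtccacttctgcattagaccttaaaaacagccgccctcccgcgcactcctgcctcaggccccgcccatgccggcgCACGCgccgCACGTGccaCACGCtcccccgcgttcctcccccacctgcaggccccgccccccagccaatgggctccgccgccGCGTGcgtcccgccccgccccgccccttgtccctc
P4ha2 (chr11:54100674-54100923, plus strand): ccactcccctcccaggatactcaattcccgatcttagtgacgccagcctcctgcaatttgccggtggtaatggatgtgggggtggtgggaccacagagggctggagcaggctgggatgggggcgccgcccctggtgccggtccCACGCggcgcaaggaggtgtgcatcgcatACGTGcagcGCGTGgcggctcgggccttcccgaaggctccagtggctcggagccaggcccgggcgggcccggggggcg
Pdhb (chr14:8172993-8173242, minus strand): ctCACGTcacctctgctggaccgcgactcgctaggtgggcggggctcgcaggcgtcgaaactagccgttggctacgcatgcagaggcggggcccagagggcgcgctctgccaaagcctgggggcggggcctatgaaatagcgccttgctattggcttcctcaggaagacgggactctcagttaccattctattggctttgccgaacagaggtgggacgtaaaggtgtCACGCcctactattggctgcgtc
Ldha (chr7:46845554-46845803, plus strand): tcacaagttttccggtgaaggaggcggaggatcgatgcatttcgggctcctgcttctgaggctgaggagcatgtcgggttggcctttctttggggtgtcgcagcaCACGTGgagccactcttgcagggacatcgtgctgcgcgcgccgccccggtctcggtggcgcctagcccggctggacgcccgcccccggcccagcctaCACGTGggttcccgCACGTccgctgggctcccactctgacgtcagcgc

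The upstream stretch of Pdk1 held 1 run, GCGTG, whose first base lies 78 bases before that start, that of Bnip3 held 4 and that of P4ha2 held 3. Those of Pdhb and Ldha held 2 and 3, among them 2 copies of CACGTG in Ldha. Matches were therefore present upstream of genes that rose and of genes that fell. Over all RefSeq starts of these members, either motif was found in 3 of 4 promoters of those that rose. For those that fell it was found in 6 of 7. The stretch before the second Pdk1 start, not shown, held none. Over the RefSeq table, at least 1 match to ACGTG was found in 16.57% and to GCGTG in 28.16% of 32851 promoters, and to either in 38.6%. Of the 42 members, 39 matched the table with 58 promoters, and 43 of these (74.14%) held either motif. By group the share was 85.71% of 7 promoters of HIF factors and targets, 77.78% of 27 for glycolysis, and 81.25% of 16 for the citrate cycle. It was lower for pyruvate dehydrogenase, with 2 of 4 promoters, and for gluconeogenesis, with 1 of 4. The table covers genes of every kind, and base composition differs among promoters, so these shares are a description. A match to 5 letters is not a binding site.

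**Figure D2:**
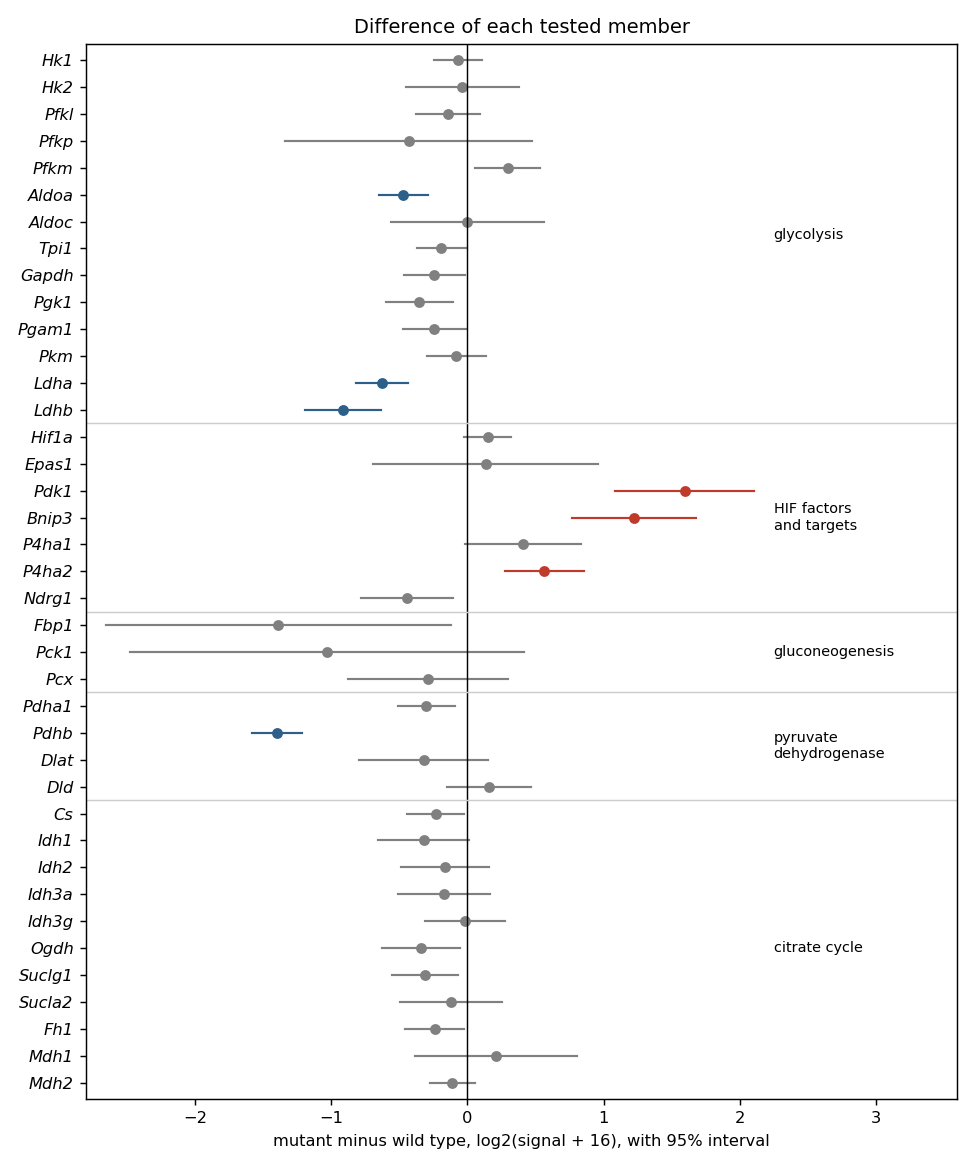
Difference of each tested member and of Gapdh (points; mutant minus wild type on log2(signal + 16)) with its 95% interval (lines), grouped by role; red points rose, blue points fell and grey points did not pass the threshold. Most glycolysis and citrate cycle genes lie a little left of 0, while Pdk1 (1.60) and Pdhb (-1.40) lie far to either side.

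In glycolysis, 3 of 13 tested genes fell (background 6.11%), 0 rose (background 4.65%) and 10 did not pass. In 12 of the 13 the difference was negative, beside 48.6% of all genes tested. Pfkp, among the 12, passed the filter through wild-type arrays alone, which favoured a negative difference. The median was -0.19, and it was -0.079 without mutant replicate 1 and -0.25 without mutant replicate 2. The mutant signals were below the whole wild-type range for Aldoa, Tpi1, Pgk1, Pgam1, Ldha and Ldhb, and above it for Pfkm. Over all probe sets the shares were 18.8% below and 18.6% above.

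The first steps, from glucose to fructose bisphosphate, showed no call. Hk1 and Hk2, the hexokinases that trap glucose as its phosphate, had -0.069 (95% interval -0.24 to 0.11) and -0.038 (-0.45 to 0.38). The phosphofructokinase subunits, which form the main control point of glycolysis, had -0.14 for Pfkl, the liver form (adjusted p = 0.444), -0.43 for Pfkp, the platelet form (adjusted p = 0.551), and 0.30 for Pfkm, the muscle form (adjusted p = 0.112). Pfkm read 943 and 870 on mutant arrays and 683, 765, 740 and 755 on wild-type arrays, so the groups did not overlap. Pfkp had signals near the filter level, 49.2 and 102 against 69.0 to 132, and its other probe set gave -1.52 (adjusted p = 0.0678). At both Pfkp probe sets the mutant signals were under the 40th percentile of their arrays. Both passed the filter through wild-type arrays alone, which favoured a lower mutant value, so these differences carry no weight. Of 13 skeletal muscle markers with a probe set, 11 were tested, 6 rose (background 4.65%) and 0 fell (background 6.11%) on the same arrays. Tnnc1, among the 6, had wild-type signals under the 40th percentile of their arrays. It passed the filter through the mutant arrays alone and had to differ, so it carries no weight. The summed signal of the 13 was 6238 to 6482 in the mutant and 1837 to 2604 in the wild type. No marker was at 0, and the part of muscle cells in the Pfkm values was not tested.

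Aldoa, the main aldolase of muscle and of most embryonic tissues, fell. Its probe set 160090_f_at read 4932 and 4578 in the mutant and 6364, 6867, 6715 and 6410 in the wild type, a difference of -0.47 ± 0.080 (SE; adjusted p = 0.0067). The lowest wild-type array was well above both mutant arrays. Its second probe set did not follow (-0.042, adjusted p = 0.926), the mean of both had -0.26 (adjusted p = 0.255), and without mutant replicate 2 the call was lost (-0.42, adjusted p = 0.113). The suffix f in both names marks probe sets that can share sequence with related genes. Aldoc, the aldolase of brain, had 115 and 154 in the mutant and 128 to 137 in the wild type, with a difference of -0.0006.

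No gene from triose phosphate to pyruvate passed the threshold. Tpi1, which interconverts the triose phosphates, had -0.19 (adjusted p = 0.161), Pgam1, the phosphoglycerate mutase, had -0.24 (adjusted p = 0.165) and Pkm, the pyruvate kinase of most tissues, had -0.081 (95% interval -0.30 to 0.14). A second Pkm probe set had 0.11 (adjusted p = 0.673). Pgk1, the phosphoglycerate kinase that yields the first ATP of the pathway, read 4638 and 5002 in the mutant against 5866, 7243, 5816 and 5830 in the wild type (-0.35, adjusted p = 0.0731). Both mutant Pgk1 values were below every wild-type value. Pgam1 passed without wild-type replicate 4 (-0.31, adjusted p = 0.0282), and both Pgam1 and Pgk1 passed without wild-type replicates 2 and 4 (adjusted p = 0.0325 and 0.0430).

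Gapdh, which oxidises glyceraldehyde phosphate, is a common reference gene and was measured by 3 control probe sets kept in an added fit. Its 5′ probe set read 20742 and 20070 on mutant arrays and 23072, 25918, 21675 and 26174 on wild-type arrays. Both mutant arrays were below the wild-type range at all 3 probe sets, with differences of -0.24 (adjusted p = 0.155), -0.31 for the middle one (0.0895) and -0.22 for the 3′ one (0.150). The ratio of 3′ to 5′ signal, a measure of RNA integrity, was 0.826 and 0.830 in the mutant and 0.785 to 0.834 in the wild type. Genes of this pathway have many processed pseudogenes, and probe sets for Gapdh, Ldha, Tpi1 and Pgk1 may read related sequences too.

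Both lactate dehydrogenase subunits fell. Ldha, the subunit that favours making lactate, read 6652 and 6792 on mutant arrays, against 10163, 11271, 9725 and 10543 on wild-type arrays (96072_at). Every wild-type array was above both mutant arrays, and the difference was -0.63 ± 0.084 (SE; adjusted p = 0.00185), or 0.646-fold. Ldhb, the subunit of heart and of oxidative tissues, read 614 and 614 in the mutant and 1055, 1168, 1115 and 1373 in the wild type (101990_at). Its difference was -0.92 ± 0.12 (SE; adjusted p = 0.00185), or 0.530-fold, again with no overlap. Both passed under all 11 other settings and with each array left out, Ldha with differences of -0.67 to -0.56 and Ldhb with -0.97 to -0.81. Whether the 2 subunits differed in the size of their fall was not tested.

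Of the 3 genes for making glucose, none passed, and their signals were close to the filter level. Fbp1, the fructose bisphosphatase, read 18.1 and 52.5 in the mutant and 130, 43.6, 138 and 174 in the wild type, and the groups overlapped through wild-type replicate 2 (-1.39, adjusted p = 0.152). Its mutant signals were under the 40th percentile of their arrays, and it passed the filter through 3 wild-type arrays alone. Pck1, the phosphoenolpyruvate carboxykinase, read 129 and 8.90 in the mutant and 88.0 to 142 in the wild type (-1.03, adjusted p = 0.356), so that a single mutant array was low. Without that array its difference was 0.24 (adjusted p = 0.823). Pcx, the pyruvate carboxylase, had -0.29 (adjusted p = 0.534). Its second probe set, which did not pass the filter, went the other way, with 103 and 138 in the mutant and 16.7 to 77.1 in the wild type. The median of the list was -1.03 and -0.16 without mutant replicate 2. Of 8 proximal tubule markers with a probe set, 6 fell (background 6.11%) and 0 rose (background 4.65%) on the same arrays. Among the 6, Slc34a1, Slc22a6, Pdzk1, Vil1 and Mep1a had mutant signals under the 40th percentile of their arrays. They passed the filter through the wild-type arrays alone and had to differ, so their count carries no weight. Lrp2, which also fell, read 55.1 and 122 in the mutant and 467 to 634 in the wild type. The summed signal of the 8 was 332 to 395 in the mutant and 2169 to 2927 in the wild type, with none at 0. This sum includes Slc34a1, Slc22a6, Pdzk1, Vil1 and Mep1a, so it adds no weight to their count. The part of missing tubule cells in the values of Fbp1 and Pck1 was not tested.

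**Figure D3:**
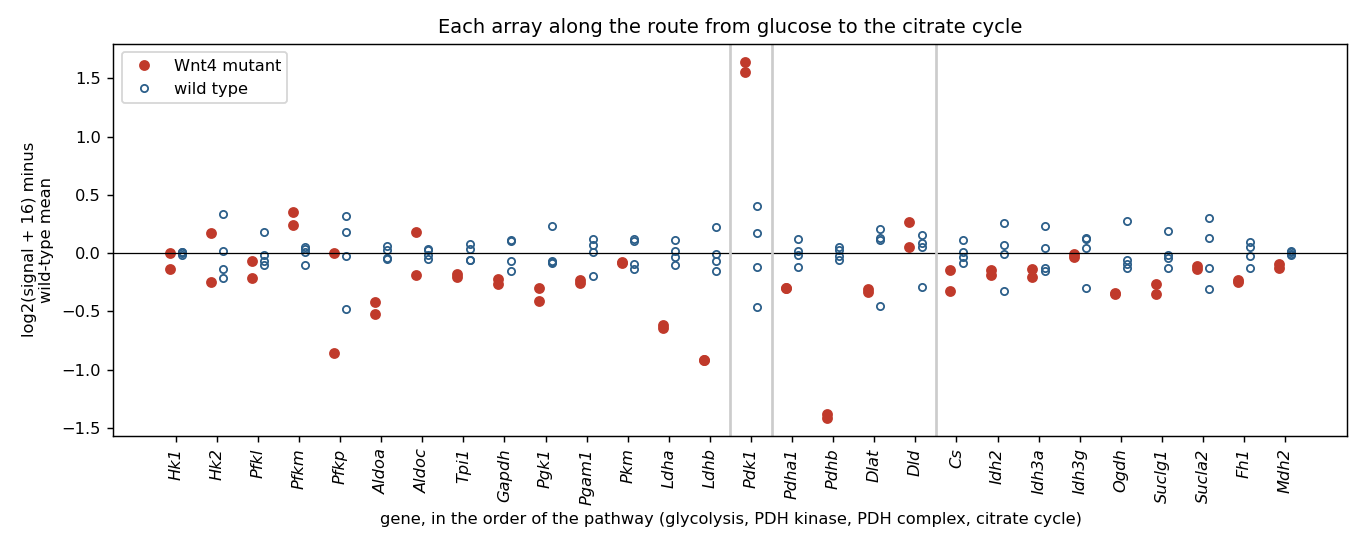
Each array's log2(signal + 16) minus the wild-type mean (vertical axis) for genes in pathway order (horizontal axis), with Wnt4 mutant arrays as filled red points left of wild-type arrays as open blue points. The mutant points of Ldha (-0.63 on average), Ldhb (-0.92) and Pdhb (-1.40) lie below, and those of Pdk1 (1.60) above, all wild-type points.

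Within the pyruvate dehydrogenase complex, 1 of 4 genes fell (background 6.11%), 0 rose (background 4.65%) and 3 did not pass. Pdhb, the beta subunit of the E1 component that decarboxylates pyruvate, read 1128 and 1152 on mutant arrays and 3095, 2976, 2918 and 3143 on wild-type arrays (94806_at). The groups were far apart compared with their spread, 1140 ± 16.6 (SD, n = 2) in the mutant and 3033 ± 104 (SD, n = 4) in the wild type. The difference was -1.40 ± 0.082 (SE; adjusted p = 3.65e-05), or 0.379-fold, and 81 of the 6081 genes tested had a lower one. It passed under all 11 other settings and with each array left out, with differences of -1.43 to -1.36.

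The other subunits did not follow to this extent. Pdha1, the alpha subunit of E1 and the one that Pdk1 phosphorylates, read 1948 and 1947 in the mutant and 2437, 2612, 2216 and 2373 in the wild type. The groups did not overlap, with a difference of -0.30 ± 0.092 (SE; adjusted p = 0.0711). Dlat, the E2 acetyltransferase, had -0.32 (95% interval -0.80 to 0.15), and its second probe set went the other way (0.39, adjusted p = 0.623). Dld, the E3 dehydrogenase that the complex shares with other enzymes, had 0.16 (-0.15 to 0.47). The median of the 4 was -0.31, and -0.13 with the mean of each gene's probe sets.

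No gene of the citrate cycle list passed the threshold, in either direction, over 11 tested. In 10 the difference was negative, beside 48.6% of all genes tested, and the mutant signals were below the whole wild-type range in 6, beside 18.8% of all probe sets. The median was -0.17, and the differences ran from -0.34 to 0.21 with adjusted p of 0.102 to 0.943. Beside that count of 0, the intervals of Cs, Ogdh, Suclg1 and Fh1 did not reach 0 before adjustment.

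Cs, the citrate synthase that opens the cycle, read 2599 and 2940 in the mutant and 3170, 3510, 3069 and 3274 in the wild type (-0.23, adjusted p = 0.150). Every wild-type value was above both mutant values. Among the isocitrate dehydrogenases, Idh2 of the mitochondrion had -0.17 (adjusted p = 0.513), the subunits Idh3a and Idh3g of the NAD-linked enzyme had -0.17 and -0.020 (adjusted p = 0.516 and 0.943), and Idh1, the enzyme of the cytosol, had -0.32 (adjusted p = 0.210). Of these 4, the groups were apart for Idh1 alone.

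Ogdh, a subunit of the oxoglutarate dehydrogenase complex, read 1162 and 1154 in the mutant and 1787, 1418, 1380 and 1349 in the wild type (-0.34, adjusted p = 0.122). Suclg1, the alpha subunit of succinyl-CoA ligase, read 1636 and 1734 in the mutant and 2065, 2029, 2394 and 1908 in the wild type (-0.31, adjusted p = 0.102), and it passed without wild-type replicates 2 and 4 (-0.40, adjusted p = 0.0485). In both genes the mutant arrays were below all wild-type arrays. Sucla2, the subunit of the ATP-forming ligase, overlapped (-0.12, adjusted p = 0.697).

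Fh1, the fumarase, read 1495 and 1511 against 1851, 1904, 1623 and 1749 (-0.24, adjusted p = 0.150), and Mdh2, the malate dehydrogenase of the mitochondrion, read 5374 and 5513 against 5811, 5848, 5973 and 5910 (-0.11, adjusted p = 0.376), the mutant arrays given first in both. Neither gene's groups overlapped. Mdh1, the enzyme of the cytosol, had signals of 194 and 195 in the mutant and 120 to 233 in the wild type, and a difference of 0.21 (95% interval -0.39 to 0.81).

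Further genes of these pathways, on lists drawn up by function, were counted next. Of 31 other genes of glycolysis and sugar handling, 17 were tested, with a median of -0.17. Of these 17, 2 fell (background 6.11%), 0 rose (background 4.65%) and 15 did not pass. Slc2a2, a glucose transporter of liver, pancreas and proximal tubule, read 22.4 and 41.4 in the mutant and 181, 171, 162 and 177 in the wild type (adjusted p = 0.00417). Its mutant signals were under the 40th percentile of their arrays, so that Slc2a2 passed the filter through the wild-type arrays alone and had to differ, and its count among the 2 that fell carries no weight. Pgm1, a phosphoglucomutase that links glycogen to glycolysis, read 840 and 729 in the mutant and 1458, 1344, 1376 and 1490 in the wild type (-0.84, adjusted p = 0.00116). The groups were apart for both genes. Slc2a1, the widespread glucose transporter and a known HIF target, read 585 and 575 against 647, 745, 684 and 403, mutant arrays first, and the groups overlapped (-0.058, adjusted p = 0.904).

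Of 34 other genes of the hypoxia response, 24 were tested, with a median of -0.046. Of these 24, 1 rose (background 4.65%), 2 fell (background 6.11%) and 21 did not pass. Ddit4, an inhibitor of mTOR signalling that is induced by hypoxia and other stress, read 1846 and 1980 in the mutant and 589, 748, 808 and 526 in the wild type (1.52, adjusted p = 7.8e-04). Vegfa, the vascular growth factor and a HIF target that podocytes and tubules also express, read 169 and 118 in the mutant and 308, 257, 233 and 292 in the wild type (-0.87, adjusted p = 0.0338). Ddit4 was far above and Vegfa below the wild-type range. Cited2, a competitor of HIF for its coactivators, read 1065 and 1123 in the mutant and 1830, 1753, 2578 and 1532 in the wild type (-0.78, adjusted p = 0.0277). With 1 array left out the differences kept their sign, at -1.10 to -0.63 for Vegfa and -0.88 to -0.63 for Cited2. The call of Vegfa was lost without mutant replicate 1 (adjusted p = 0.0594), mutant replicate 2 (0.252), wild-type replicate 1 (0.0871), wild-type replicate 4 (0.0532) or wild-type replicates 2 and 4 (0.0789), with no filter (0.0641) and with the replicate block (0.0675). That of Cited2 was lost without mutant replicate 1 (0.175), mutant replicate 2 (0.148) or wild-type replicate 1 (0.0628), and with no variance trend (0.0844).

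The oxygen sensors Egln1 and Egln2, which mark HIF for destruction, had 0.12 and -0.049 (adjusted p = 0.657 and 0.851). Vhl, which recognises the mark, had 0.15 (adjusted p = 0.779), and Arnt, the constant partner of both HIF subunits, had 0.27 (adjusted p = 0.512). For Vhl, Egln1 and Egln2 the mutant values lay within the wild-type range.

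Of 26 other genes of pyruvate handling and the citrate cycle, 15 were tested, with a median of -0.26. Of these 15, 1 fell (background 6.11%), 0 rose (background 4.65%) and 14 did not pass. In 10 of the 15 the mutant signals were below the whole wild-type range, beside 18.8% of all probe sets. Sdhd, a membrane anchor of succinate dehydrogenase, read 2176 and 1952 in the mutant and 3764, 4232, 4040 and 4503 in the wild type (-0.996, adjusted p = 4.57e-04). It passed under all 11 other settings and with each array left out. The other subunits Sdha, Sdhb and Sdhc had -0.17, -0.27 and -0.33 (adjusted p = 0.594, 0.0913 and 0.0598), and Pdk3, a second kinase of pyruvate dehydrogenase, had 0.052 (adjusted p = 0.802).

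**Figure D4:**
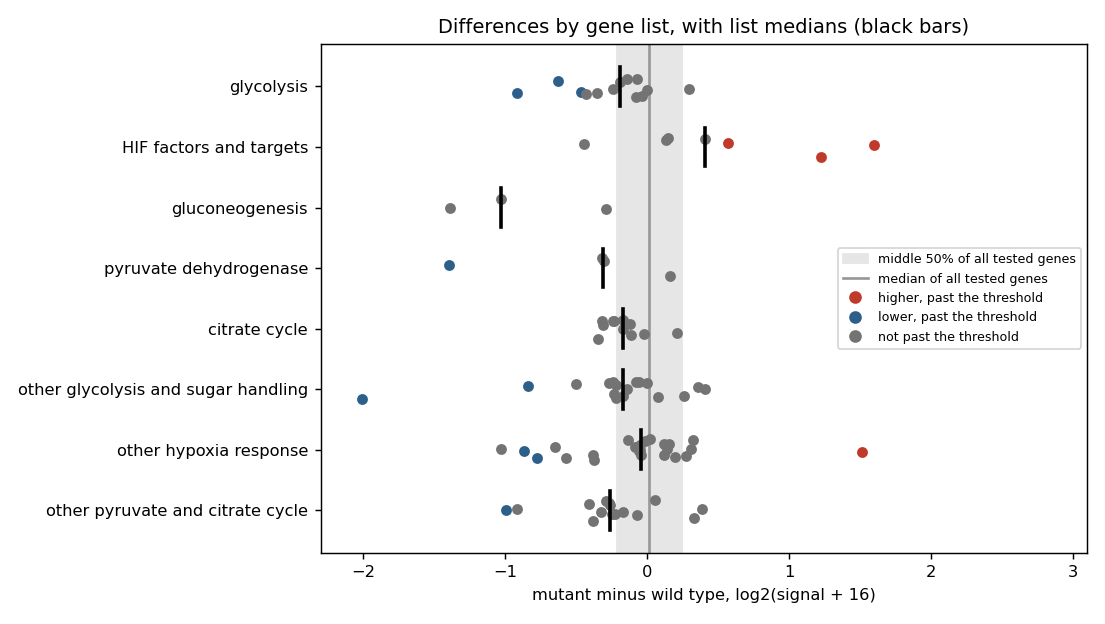
Differences (horizontal axis, mutant minus wild type on log2(signal + 16)) of each tested gene by list, with black bars at list medians and grey shading over the middle 50% of all tested genes. The median of the HIF factors and targets (0.41, without Adm) lies right of the shading. The medians of other hypoxia response genes (-0.046), glycolysis (-0.19), other glycolysis and sugar handling (-0.17) and the citrate cycle (-0.17) lie inside it. Those of pyruvate dehydrogenase (-0.31), other pyruvate and citrate cycle genes (-0.26) and gluconeogenesis (-1.03) lie left of it.

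Markers of several cell types differed between the same arrays, beside 6.11% of all probe sets that fell and 4.65% that rose. All 3 stroma markers rose, with a summed signal of 9500 to 9555 in the mutant and 3404 to 3778 in the wild type. Of 7 erythroid markers tested 3 rose, all globins of the embryo (Hba-x, Hbb-y, Hbb-bh1), and 0 fell. Hbb-bh1 passed the filter through the mutant arrays alone and had to differ, so it carries no weight. The erythroid sums were 38608 to 39659 in the mutant and 22977 to 31368 in the wild type. Hba-a1, the adult globin, had -0.0039, Slc4a1 0.81 (adjusted p = 0.366), Epor -0.13 and Alas2 -0.46 (adjusted p = 0.0643), and Alas2 was below the whole wild-type range. Of 7 endothelial markers 2 fell, Eng and Icam2 (-0.58 and -0.56), and 0 rose. Cdh5, Tek, Tie1 and Kdr overlapped between the groups (-0.10, -0.072, -0.14 and 0.12), and Pecam1 did not pass the threshold (-1.11). Pecam1 was kept by the filter through wild-type arrays alone, which favoured a lower mutant value, so its difference carries no weight. The endothelial sums were 3978 to 4094 in the mutant and 5165 to 5246 in the wild type. Eng alone read 1547 and 1704 in the mutant and 2335 to 2614 in the wild type. Of 4 macrophage markers tested 1 rose and 0 fell, and the sum over 5 was 1414 to 1449 in the mutant and 775 to 1108 in the wild type. Of 4 nephron progenitor markers Cited1 fell (-0.76, adjusted p = 0.00818) and Six2, Eya1 and Gdnf overlapped between the groups (-0.11, 0.27 and 0.14). Their median was 0.011, with sums of 5070 to 5119 in the mutant and 5564 to 6469 in the wild type. Of 3 ureteric bud markers tested 1 rose, Krt8 (0.36), while Gata3 did not pass (0.47) and Wnt11 overlapped between the groups (-0.046). Ret, not tested, was below the wild-type range, with 8.08 and 8.61 in the mutant and 30.5 to 104 in the wild type. Of 3 chromaffin and neural markers 0 passed. None of these markers was at 0 on any array. The part of these cell types in the differences of Pdk1, Bnip3, Pdhb or the lactate dehydrogenases was not tested.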

How the data were processed

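The values are linear probe set signals (intensity) of 6 one-colour Affymetrix MG_U74Av2 arrays, deposited as a table that the authors made with GCOS, per the submitters' processing notes. Its version and settings were not given in the sources used here. Without the lowest and highest 2% of values each array had a mean signal of 500.27 to 500.29, so arrays were already scaled. Per the labels, RNA was amplified in 1 round.

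Gene names came from the platform annotation, updated by gene identifier to the RefSeq table of GRCm38.p6 (10817 of 10833 probe sets with 1 symbol matched, 396 had several and 1193 none). The 66 control probe sets were set aside, and a fit with the Gapdh ones kept was added after seeing the data. Probe sets above the 40th percentile of their array on at least 2 arrays were kept. The test was limma 3.58.1 under R 4.3.3 (lmFit, eBayes with a variance trend) on log2(signal + 16), with no covariate, p adjusted by Benjamini-Hochberg over the 7981 probe sets tested and a threshold of 0.05. It was checked on simulated data. The number of arrays limits the precision.

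The members, the wider lists and the cell type markers were chosen with earlier results of these data known. All members are named, and the wider lists give every gene past the threshold. Genes named beside these (Slc2a1, the oxygen sensors, Vhl, Arnt, Pdk3 and the other succinate dehydrogenase subunits) were added for their role after their values were seen. Alternatives changed the offset, filter, scaling, variance trend, array weights, probe set rule and replicate block, and left out arrays.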

Additional observations from a re-analysis of the deposited data

Results flagged for a closer look

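Among the 40 members with a probe set, the signals of 4 had a wild-type array far from the other 3, measured by its gap to the nearest array over the whole range on the log2 scale. They were Pgk1 in wild-type replicate 2 (7243), Bnip3 in wild-type replicate 2 (159), Ndrg1 in wild-type replicate 4 (537) and Dlat in wild-type replicate 4 (227). Chance flags about 1 in 20 groups. Without wild-type replicate 2 Bnip3 kept its call, and without wild-type replicate 4 Ndrg1 passed, as given with its values.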

How the results depend on the processing

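Over 636 refits of single members none that was called in either fit changed sign, 10 lost and 13 gained a call, and 25 had a sign change of genes that passed in neither, mostly Aldoc, Hk2 and Epas1. Pdk1, Pdhb, Ldha and Ldhb passed throughout. Leaving out each array in turn gave 188 to 553 probe sets lower and 114 to 448 higher, 3 to 6 members lower and 1 to 3 higher, and medians of -0.25 to -0.079 for glycolysis and -1.11 to -0.16 for gluconeogenesis. With array weights 738 probe sets were lower and 613 higher, and 9 members lower, the 5 added being Pgk1, Pgam1, Ndrg1, Pdha1 and Suclg1. Without wild-type replicates 2 and 4, 8 members were lower. The gluconeogenesis median was -1.58 with an offset of 1 and -0.53 with 64, and could not be computed with a filter at the 60th percentile. The pyruvate dehydrogenase median was -0.13 when all probe sets of each gene were averaged. The replicate numbers do not pair the samples (deviations of same-numbered arrays correlated at 0.0031 and -0.015), and the replicate block gave 362 probe sets lower and 341 higher, 5 and 2 members, and a citrate cycle median of -0.27. It added Pgk1 (-0.44, adjusted p = 0.0469) and ended the call of P4ha2 (0.59, adjusted p = 0.0735). In these settings the cause of a change was not tested.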
